A study of Mus musculus with 8 samples.

Results

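The cartilage fibril collagens of types II, IX and XI were followed across the nuclei of the mouse petrous temporal bone (PTB), the part of the skull base that encloses the inner ear. The 6 genes Col2a1, Col9a1, Col9a2, Col9a3, Col11a1 and Col11a2 were chosen by symbol from the 32285 genes of the count matrices. Raw unique molecular identifiers (UMIs) were summed in each library over the nuclei of each deposited cell type, and a level is given as CPM, that is counts scaled to 1000000 of those summed UMIs.

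The study asked how loss of 1 copy of Tbx1, a T-box transcription factor gene of the 22q11.2 deletion region, changes the cells of the PTB and of the paraflocculus and flocculus (PF/F) of the cerebellum. Single nuclei were sequenced at postnatal day 5.5 from wild-type (WT) mice and from Tbx1+/- mice, which carry the deletion in every cell and were backcrossed to C57BL/6J. Each library held a pool of 5 mice, and each tissue had 2 libraries of each genotype, from 2 separate batches of animals. The replicate number is taken here to mark the batch, which the labels do not state. The deposited PTB annotation covers 31076 nuclei in 15 types, namely connective tissue (CT1 to CT4), chondrocyte progenitors (CP1 to CP6), matured chondrocytes, a class labelled hypertrophic chondrocyte and osteoblast, osteoblasts, matured osteoblasts and osteoclasts. Other types that the paper found in bone, such as immune cells and neurons, are not part of it.

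Cartilage fibrils are built mainly from type II collagen, a homotrimer of the Col2a1 chain. Type XI collagen, a minor fibrillar collagen made with the Col11a1 and Col11a2 chains and a modified Col2a1 product, sits inside the fibril and limits its width, while type IX collagen, a heterotrimer of the Col9a1, Col9a2 and Col9a3 chains, decorates the fibril surface. SOX9, together with SOX5 and SOX6, is a known activator of these genes in chondrocytes. The otic capsule around the inner ear forms as cartilage and is then largely replaced by bone, a process in which chondrocytes and osteoblasts lie side by side.

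The annotated PTB libraries held 5981 to 9977 nuclei with a median of 3853 to 4758 UMIs, and any pair of them shared 11 to 26 barcodes. Tbx1 itself stood at 40.9 and 41.7 CPM in the WT libraries and at 27.9 and 38.6 CPM in the Tbx1+/- libraries over the 5 classes tested for genotype. In these pooled values Tbx1+/- 2 was close to the WT libraries, and only Tbx1+/- 1 was clearly below them. The paper reports Tbx1 as most pronounced in CP subtypes, and as reduced in Tbx1+/- mice. CP nuclei numbered 4394 of 9977 and 2424 of 5981 in WT, and 3152 of 8704 and 2513 of 6414 in Tbx1+/-. The pooled values were not adjusted for this make-up, so they do not compare Tbx1 within a cell type. Which part of Tbx1 the mutant allele lacks is not given in the sources used here, so counts over the whole gene are a limited check of the labels. A fit without Tbx1+/- 2 leaves 1 library of that genotype, so it cannot show whether that library hides a change. Osteoclasts, which resorb bone and cartilage and are not known to make cartilage collagens, were used as the reference type for counts outside cartilage cells, and whether those counts are free RNA was not tested. The 1559 osteoclast nuclei were deeper than the others, with a median of 4963 to 7105 UMIs. Some of them carried many collagen counts. Those with at least 10 Col11a1 UMIs made up 13.2% to 15.3% of osteoclast nuclei over the libraries and held 50.8% to 64.8% of their Col11a1 UMIs, and those with at least 10 Col2a1 UMIs made up 2.19% to 4.22% and held 18.7% to 25.8% of their Col2a1 UMIs. The osteoclast reference for these genes, and each ratio to it, thus rests in part on a minority of nuclei. Mice were pooled, so the spread between libraries includes the batch of animals but not single mice.

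The promoters are shown for a type IX gene and both type XI genes, since their levels over the cell types differed. RefSeq sequence of GRCm38.p6 was at hand for 4 of the genes, and the 250 bases before the RefSeq start are printed for Col9a1, Col11a1 and Col11a2 on the plus strand, with capitals for GGGCGG (or CCGCCC on the other strand), the core of a GC box, and for TATAAA.

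Col9a1, chr1:24177360-24177609: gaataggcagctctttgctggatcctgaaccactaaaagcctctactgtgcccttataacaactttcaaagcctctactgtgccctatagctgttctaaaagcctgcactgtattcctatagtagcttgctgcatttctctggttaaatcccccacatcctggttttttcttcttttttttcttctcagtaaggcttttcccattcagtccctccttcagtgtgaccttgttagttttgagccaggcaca

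Col11a1, chr3:114030290-114030539: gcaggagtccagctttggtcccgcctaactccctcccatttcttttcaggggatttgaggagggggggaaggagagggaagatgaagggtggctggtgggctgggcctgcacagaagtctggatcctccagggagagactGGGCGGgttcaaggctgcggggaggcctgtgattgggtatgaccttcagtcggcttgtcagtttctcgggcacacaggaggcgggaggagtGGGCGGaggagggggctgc

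Col11a2, chr17:34038888-34039137: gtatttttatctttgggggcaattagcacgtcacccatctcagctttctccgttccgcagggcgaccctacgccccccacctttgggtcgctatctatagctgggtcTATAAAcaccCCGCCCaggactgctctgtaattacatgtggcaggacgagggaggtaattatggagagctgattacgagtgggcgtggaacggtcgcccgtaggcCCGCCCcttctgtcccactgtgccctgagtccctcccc

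The searched letters were ACAAT and ACAAAG, which are cores that SOX factors bind, ACCACA, a core that RUNX factors bind, and GGGCGG and TATAAA, on both strands and with no overlap among the matches found. Col11a1 held GGGCGG at 110 and 19 bases before its RefSeq start, and Col11a2 held it on the reverse strand at 133 and 38 bases, beside TATAAA at 143 bases. Neither this Col9a1 window nor the one at its other annotated start (chr1:24194953-24195202) held any of the letters. GC content was 43.6% and 56.0% in these windows, 60.4% in Col9a2, 62.4% in Col11a1 and 57.6% in Col11a2, so it did not separate type IX from type XI. Among all 32851 promoter windows of 250 bases, 32.7% held the GC box, 12.4% TATAAA, 27.7% ACAAT, 16.5% ACAAAG and 14.05% ACCACA. In Col9a2, a pair of GC boxes lay 26 and 14 bases before the RefSeq start, and no SOX or RUNX core was found in the windows of the 4 genes. These matches describe the letters only, and distances are from the RefSeq starts, which are not always those of GENCODE.

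In GENCODE vM21 (GRCm38), Col2a1 lies at chr15:97975602-98004695 on the minus strand, Col9a1 at chr1:24177610-24252684, Col9a2 at chr4:121039385-121055322, Col9a3 at chr2:180597790-180622189, Col11a1 at chr3:114030540-114220718 and Col11a2 at chr17:34039437-34066685, the last 5 on the plus strand. The RefSeq start used above is the same base for Col11a1 and the printed Col9a1 window, but lies 299 bases upstream of the GENCODE gene start for Col11a2 and 181 bases inside the GENCODE gene for Col9a2. The genes span 15.9 kb (Col9a2) to 190.2 kb (Col11a1), and reads in introns and exons were both counted. The 3' end of Col9a3 overlaps Tcfl5, which lies on the opposite strand.

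The 6 genes followed 3 patterns over the cell types. The type IX genes were high in CP3, CP4, CP5 and matured chondrocytes and stood near the osteoclast level in osteoblasts. Col11a1 was as high in osteoblasts as in matured chondrocytes. Col2a1 and Col11a2 lay between, with the highest level in matured chondrocytes and an intermediate one in CP5 and osteoblasts.

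**Figure D1:**
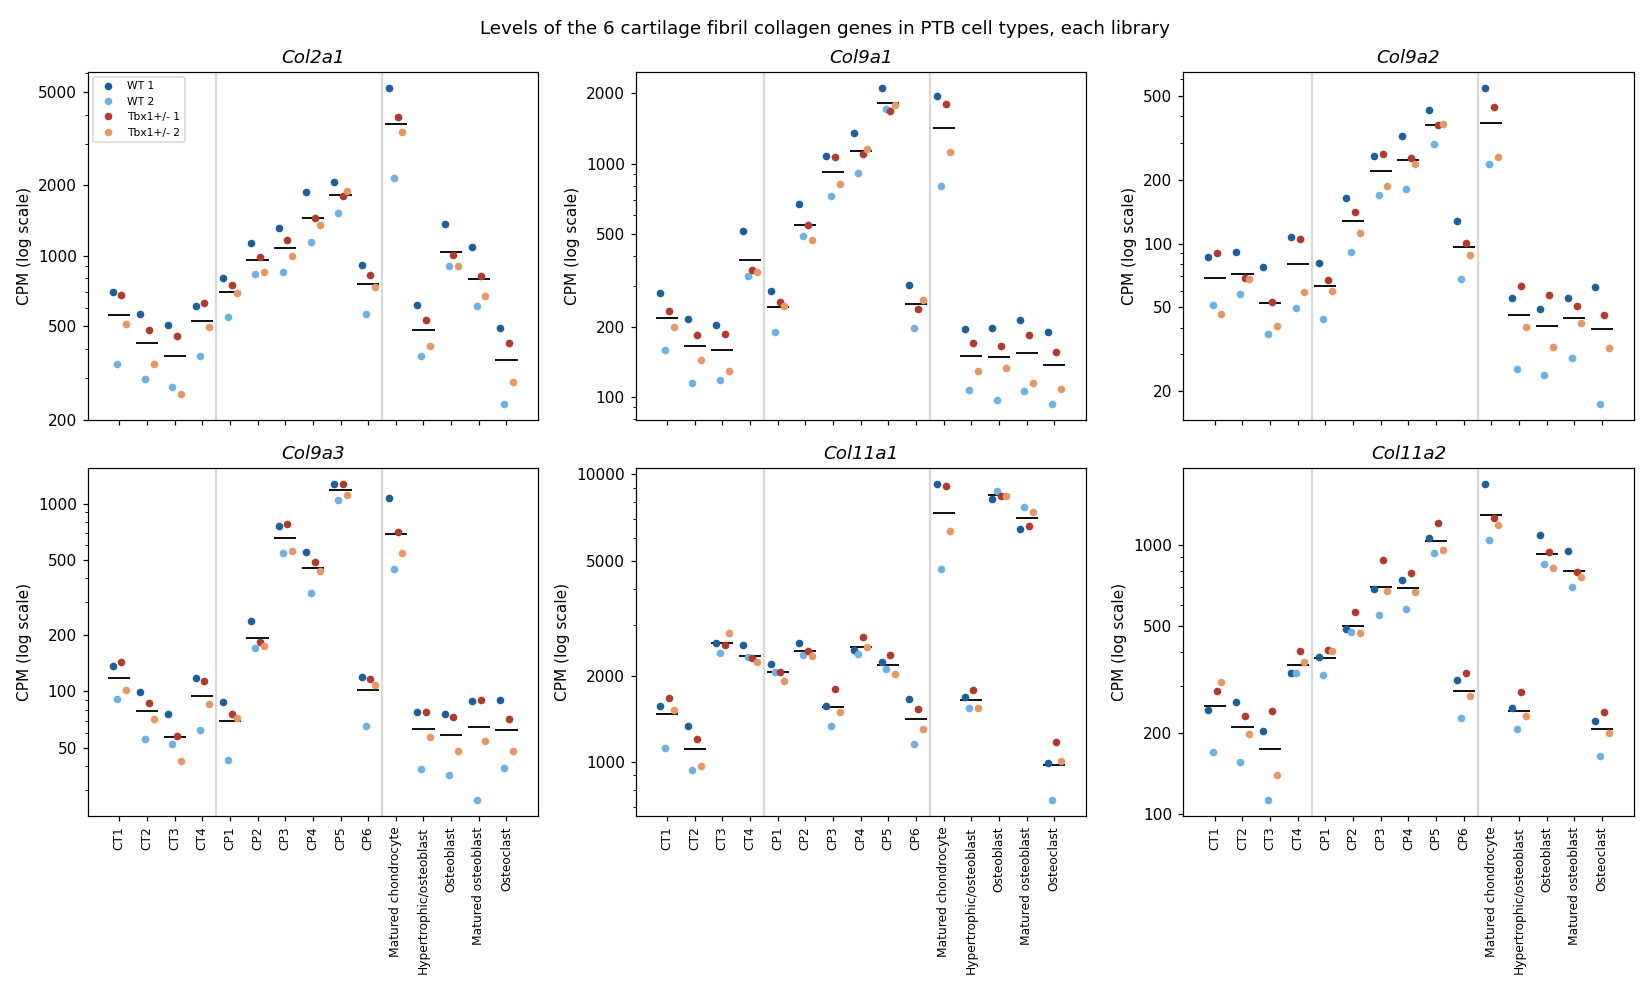
Level of each collagen gene (CPM, log scale) in the 15 annotated PTB cell types, with 1 point per library (WT 1 and 2 in blue, Tbx1+/- 1 and 2 in red and orange) and a bar at the mean of 4 libraries. The type IX genes peak in CP5 and matured chondrocytes and lie near the osteoclast level in osteoblasts, where Col11a1 stands at 8453 CPM.

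Col2a1, which encodes the main chain of the cartilage fibril, stood in matured chondrocytes at 5217 and 2148 CPM in the WT libraries and at 3902 and 3390 CPM in the Tbx1+/- libraries, with a mean of 3664 ± 1270 (SD, n = 4). Every library was above its own osteoclasts, at 493, 233, 422 and 289 CPM in the same order, by a ratio of 9.23 to 11.7. The WT libraries were the highest and the lowest of the 4, so the genotypes overlapped. Next came CP5 at 1818 ± 227 CPM, CP4 at 1454 ± 306, CP3 at 1082 ± 203 and osteoblasts at 1043 ± 218. Neighbours in that order overlapped in their ranges from CP5 downward. Osteoblasts were above osteoclasts in each of the 4 libraries, by 2.38 to 3.88 times. The CT subtypes, the hypertrophic class and CP1 and CP6 lay between 374 and 760 CPM, beside 359 ± 120 in osteoclasts. The ratio to osteoclasts of the same library ran from 0.89 (CT3) to 2.55 (CP6) among these types.

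The matured chondrocyte values rest on few nuclei, 587 in all, with 147 and 138 in the WT libraries and 48 and 254 in the Tbx1+/- libraries. Sums of 9 cartilage markers were 2488 to 6579 CPM there against a mean of 139 in osteoclasts, the only type set beside them here. The paper named its types from markers in these same data, so the sums describe the label and do not test it. In WT 2, however, the same nuclei held 13308 CPM of 5 erythroid genes (globins and Alas2), against 929 to 1195 CPM in the other libraries, and that library had the lowest sum of cartilage markers. Without WT 2, Col2a1 averaged 4169 ± 942 CPM (n = 3), Col9a1 1623 ± 442, Col9a2 416 ± 146, Col9a3 772 ± 268, Col11a1 8251 ± 1656 and Col11a2 1381 ± 274. The part of the erythroid counts in the low collagen levels of WT 2 was not tested. Tbx1+/- 2, with erythroid counts in the range of the other libraries, stood with WT 2 in another measure. All 6 genes were found together in 61.2% and 62.5% of matured chondrocyte nuclei in WT 1 and Tbx1+/- 1, but in 24.6% and 26.4% in WT 2 and Tbx1+/- 2. These shares are as counted, at median depths of 2744 and 2962.5 against 2339 and 2482.5 UMIs. The 10% of nuclei with the most UMIs of a gene held 49.1% of the Col2a1 and 51.0% of the Col11a1 UMIs in Tbx1+/- 2, against 27.3% to 40.9% and 30.6% to 38.0% in the other libraries.

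Col9a1, the chain of type IX collagen with a short and a long form from separate start sites, reached its highest level in CP5 and not in matured chondrocytes. It stood in CP5 at 2118 and 1720 CPM in WT and at 1687 and 1790 CPM in Tbx1+/-, with a mean of 1829 ± 197. In matured chondrocytes it stood at 1951 and 801 CPM in WT and 1798 and 1120 CPM in Tbx1+/-. The ranges of CP5 and matured chondrocytes overlapped, and the difference between these types is a description, since the types were drawn from the same genes. CP4 followed at 1132 ± 184 CPM, CP3 at 922 ± 177 and CP2 at 545 ± 91.2. In osteoblasts Col9a1 stood at 148 ± 43.4 CPM, beside 136 ± 44.2 in osteoclasts. The ratio of osteoblasts to osteoclasts within a library was 1.04 to 1.23.

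Col9a3, which completes the type IX trimer, had the widest span. Its level in CP5 was 1272 and 1047 CPM in WT and 1279 and 1116 CPM in Tbx1+/-, 14.1 to 26.8 times the osteoclasts of the same library. All libraries were far above the osteoclast range of 39.1 to 90.3 CPM, and the genotypes overlapped. Matured chondrocytes held 692 ± 271 CPM and CP3 held 660.5 ± 124. CP3 exceeded CP4 (453 ± 92.2) for Col9a3, while Col2a1 and Col9a1 had higher means in CP4 than in CP3. In osteoblasts the level was 58.3 ± 19.3 CPM against 62.3 ± 23.1 in osteoclasts, and only 1 of 4 libraries had more in osteoblasts.

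Col9a2, the remaining chain, was counted least of the type IX genes and had the shortest gene. It stood at 547 and 238 CPM (WT) and 444 and 258 CPM (Tbx1+/-) in matured chondrocytes and at 364 ± 54.4 CPM in CP5, with CP4 at 248 ± 58.1 and CP3 at 221 ± 49.7. Osteoblasts held 40.7 ± 15.2 CPM and osteoclasts 39.5 ± 19.3. The ratio within a library ran from 0.78 to 1.38, above 1 in 3 of 4 libraries.

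Col11a1 encodes a chain of type XI collagen, which is also found with type V collagen in non-cartilage tissue. In osteoblasts it stood at 8199 and 8768 CPM in WT and at 8404 and 8441 CPM in Tbx1+/-, with a mean of 8453 ± 235. The 4 libraries lay close together, and each was 7.15 to 11.9 times its osteoclasts, which averaged 979.9 ± 180 CPM. Matured osteoblasts held 7033 ± 600 CPM. Matured chondrocytes, at 9296 and 4704 CPM (WT) and 9116 and 6342 CPM (Tbx1+/-), overlapped both. The next type was CT3 at 2589 ± 168 CPM, and the CP subtypes lay between 1416 and 2520 CPM. CP5, the type with the highest Col9a1 and Col9a3, was at 2177 ± 142 CPM and thus within that range.

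Col11a2, the partner chain, stood at 1694 and 1049 CPM (WT) and 1265 and 1184 CPM (Tbx1+/-) in matured chondrocytes. CP5 followed at 1039 ± 123 CPM, osteoblasts at 929 ± 122 and matured osteoblasts at 801 ± 106, with overlapping ranges. Osteoclasts held 207 ± 32.2 CPM, and osteoblasts exceeded them by 3.94 to 5.17 times in each library. CT3, high in Col11a1, held 175 ± 59.2 CPM of Col11a2, below osteoclasts in 3 of 4 libraries.

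**Figure D2:**
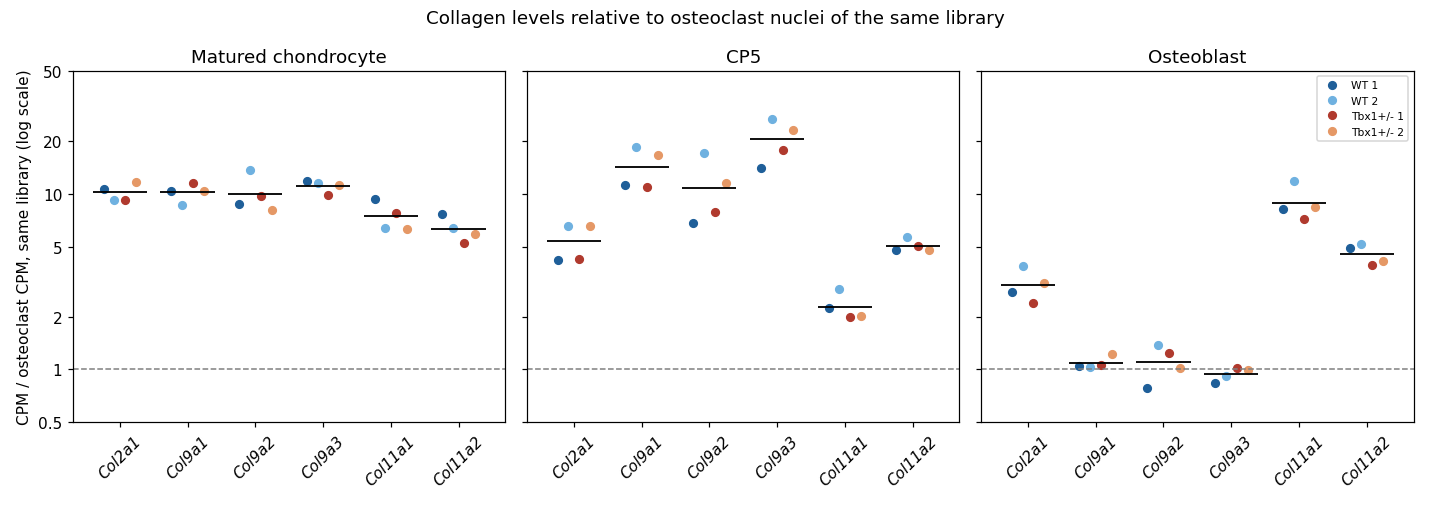
Level of each gene in matured chondrocytes, CP5 and osteoblasts divided by its level in osteoclasts of the same library (log scale, dashed line at 1), with 1 point per library and a bar at the mean of 4. In osteoblasts the 3 type IX genes have mean ratios of 0.95 to 1.11 and single libraries from 0.78 to 1.38, while Col11a1, Col11a2 and Col2a1 have mean ratios of 8.90, 4.54 and 3.03.

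Relative to osteoclasts, matured chondrocytes had mean ratios of 6.30 (Col11a2) to 11.1 (Col9a3). In CP5 the order was different, with mean ratios of 20.5 for Col9a3, 14.3 for Col9a1 and 10.8 for Col9a2 but 5.38 for Col2a1, 5.06 for Col11a2 and 2.27 for Col11a1. Of the other 14 types, 14 exceeded osteoclasts in all 4 libraries for Col9a1, 13 for Col2a1 and Col11a1, 12 for Col11a2, 11 for Col9a2 and 9 for Col9a3. The number of types in which every library was more than 2-fold above osteoclasts was 5 to 7 for each gene. Osteoclast nuclei were the deepest, so an equal count of free RNA per nucleus would give them the lowest CPM. A small excess over osteoclasts is thus not shown to be expression, and this was not tested. Barcodes outside the annotation, given below, also had means above osteoclasts for all 6 genes.

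The balance among the 6 genes shifted accordingly. In osteoblasts Col11a1 took 79.3% of their summed UMIs and the type IX genes together 2.31% ± 0.68, with a range of 1.47% to 2.94%. In CP5 Col11a1 took 26.0%, Col9a1 21.8%, Col2a1 21.6%, Col9a3 14.01%, Col11a2 12.4% and Col9a2 4.31%, so that type IX made up 40.1% ± 1.36. The type IX share was 35.0% ± 1.60 in CP3, 28.1% ± 2.06 in CP4, 16.5% ± 1.35 in matured chondrocytes and 10.6% ± 1.38 in CP1. It was 13.1% ± 2.50 in osteoclasts, so the share in osteoblasts was below that in osteoclasts. Shares can follow the length of a gene as well as its transcription, so they compare cell types and not genes.

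**Figure D3:**
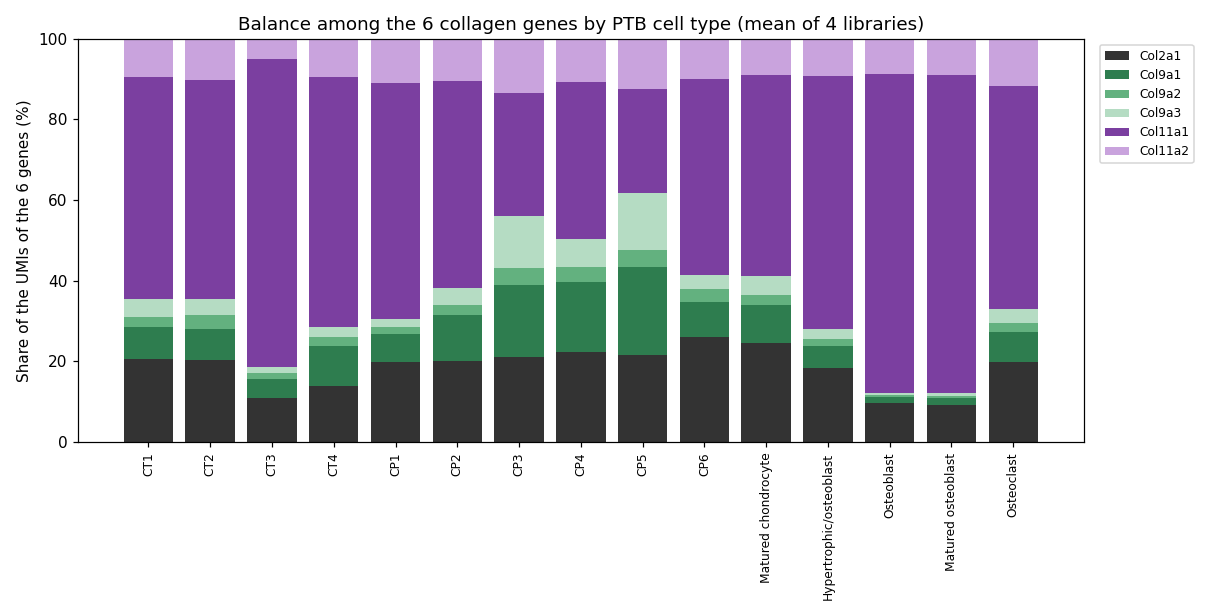
Share of each gene in the summed UMIs of the 6 genes (percent, mean of 4 libraries) for the 15 PTB types, stacked to 100%. Col11a1 fills 79.3% of the bar in osteoblasts and 26.0% in CP5, where the 3 type IX genes (greens) fill 40.1%.

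The counted ratio of partner chains differed between types. For each Col9a1 UMI there were 0.72 Col9a3 UMIs in CP3, 0.65 in CP5, 0.50 in matured chondrocytes, 0.40 in CP4 and 0.28 in CP1. For Col9a2 the ratio to Col9a1 in these 5 types was 0.20 to 0.26. Over all 15 types it ran from 0.20 (CP5) to 0.44 (CT2), with 0.38 in CP6, and that of Col9a3 from 0.25 (CT4) to 0.72 (CP3). For each Col11a1 UMI there were 0.48 Col11a2 UMIs in CP5, 0.45 in CP3, 0.18 in matured chondrocytes, 0.11 in osteoblasts and 0.07 in CT3. Some of these ratios involve a chain near its osteoclast level. Col9a3 stood at 69.7 CPM in CP1 beside 62.3 in osteoclasts, and Col11a2 at 175 CPM in CT3 beside 207. Free RNA was not corrected, so such ratios do not give the make-up of the chains in a type.

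Between genes, levels were set side by side per kb of length. The kit used counts transcripts at their end, so counts need not scale with either length and the order of genes is tentative. Per kb of exons, Col11a1 was the highest of the 6 genes in all 7 classes, at 663 CPM per kb in osteoblasts and 578 in matured chondrocytes, where Col2a1 stood at 396. Counted per kb of the whole gene, Col2a1 led in matured chondrocytes at 125.9 CPM per kb, against 47.6 for Col11a2 and 38.7 for Col11a1. In osteoblasts Col11a1 still led by that measure, at 44.4 CPM per kb against 35.8 for Col2a1 and 34.1 for Col11a2. The type IX genes stood at 2.0 to 2.6 CPM per kb of gene in osteoblasts and at 18.9 to 28.4 in matured chondrocytes. The order of Col2a1 and Col11a1 thus depended on which length was used, except in osteoblasts and matured osteoblasts, where Col11a1 led by both.

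Detection in single nuclei gave the same grouping at equal depth. With each nucleus thinned to 1000 UMIs, Col9a3 was found in 67.1% of CP5 nuclei, 42.9% of matured chondrocytes, 36.9% of CP3 and 5.83% of osteoblasts, beside 5.55% of osteoclasts. Col9a1 was found in 79.1% of CP5 nuclei, 13.9% of osteoblasts and 11.9% of osteoclasts. Col11a1 was found in 97.9% of osteoblasts and 94.8% of matured chondrocytes, but also in 48.6% of osteoclasts. Col2a1 was found in 83.1% of matured chondrocytes, 53.6% of osteoblasts and 28.8% of osteoclasts. Without thinning, the share with a Col9a3 UMI was 97.9% in CP5, 23.1% in osteoblasts and 24.2% in osteoclasts.

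**Figure D4:**
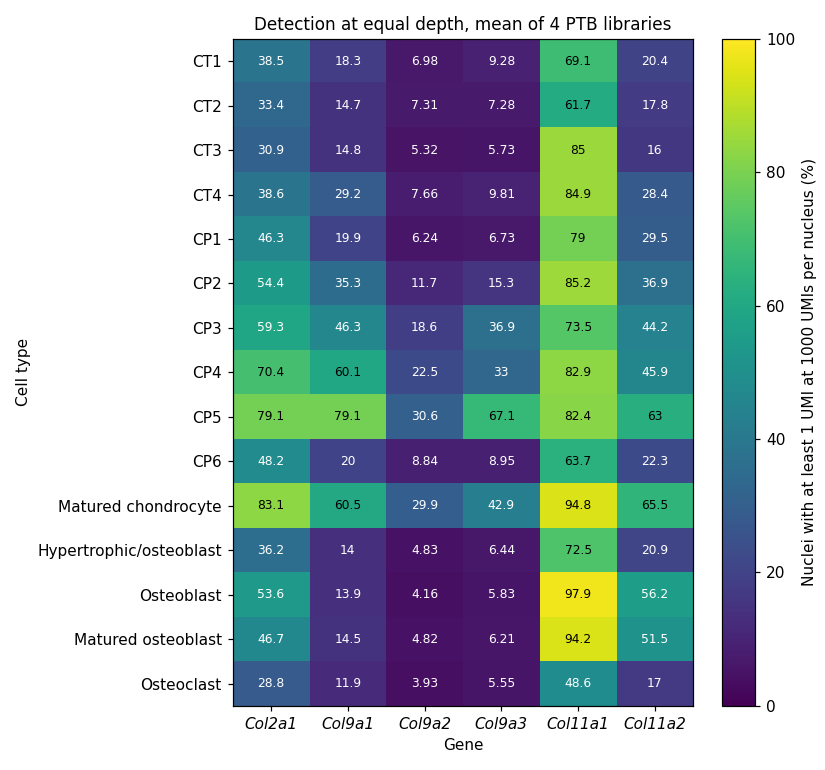
Percent of nuclei with at least 1 UMI of each gene when every nucleus is thinned to 1000 UMIs, as the mean of 4 PTB libraries. Col9a3 is found in 67.1% of CP5 nuclei and 5.83% of osteoblasts, and Col11a1 in 97.9% of osteoblasts and 48.6% of osteoclasts.

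All 6 genes were found together, as counted, in 76.1% of CP5 nuclei (71.5% to 78.2% over the libraries), 43.7% of matured chondrocytes (24.6% to 62.5%), 39.7% of CP4 and 31.7% of CP3. Osteoblasts had 3.56% and osteoclasts 4.44%. Among CP nuclei, 51.8% of those with a Col2a1 UMI also had a Col9a3 UMI, against 25.4% of those without one, and deeper nuclei have more of both. In osteoblasts the same shares were 23.5% and 19.5%.

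As a description over the 15 type means, which share libraries and depth, the type IX genes had the most similar patterns, with Pearson r of log2(CPM + 1) of 0.98 for Col9a1 with Col9a2 and 0.97 for each with Col9a3. Col2a1 was closest to Col11a2, with r = 0.91. Col11a1 stood apart from the type IX genes, with r of 0.07 to 0.13. Among 13120 other genes, Sox9, the chondrocyte master regulator, had the pattern closest to Col9a1 (r = 0.91) and to Col9a2 (r = 0.92), and S100b, a calcium-binding protein gene made by chondrocytes and glia, the one closest to Col9a3 (r = 0.94). Sox9 stood at 143.6 CPM in matured chondrocytes and 101 CPM in CP5, and ranged from 10.4 to 23.5 CPM in osteoblasts, near the 15.2 CPM of osteoclasts.

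The next most similar genes were Pfkm, S100b, Fzd9 and Acot7 for Col9a1, S100b, Ivd, Zcchc18 and Pfkm for Col9a2, and Nckap5, 2610035D17Rik, Sox8 and Ucma for Col9a3. Ucma, a small secreted cartilage matrix protein gene, stood at 52.9 CPM in CP5 and 4.32 CPM in osteoblasts. For Col11a1 they were Copb1, Adamts3, Gbf1, Kdelr2 and Rnf144b, with r of 0.91 to 0.94. Copb1 encodes a coat subunit of vesicles between the Golgi and the endoplasmic reticulum, Kdelr2 a receptor that returns proteins to the latter, and Adamts3 a procollagen N-proteinase. Adamts3 stood at 187 CPM in matured chondrocytes, 117 in osteoblasts, 49.7 in CP5 and 19.3 in osteoclasts. For Col2a1 they were Sort1, Gsg1l, Mtcl1, Cnnm4 and Srpx, and for Col11a2 Kctd14, Slc25a38, Gsg1l, Akap9 and Mtcl1. Few of these names held under another measure, since only 0 to 3 of the 5 for each gene were also among the top 5 by Spearman's rho. Without matured chondrocytes, 0 of the 5 names stayed in the top 5 for each type IX gene, Sox9 and S100b included, 1 of 5 for Col2a1 and for Col11a2, and 4 of 5 for Col11a1. The r of Sox9 with Col9a1 was still 0.91 without that type.

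The other matrix genes of cartilage were read in CP5 from the list of 15 fibril partners. In all 4 libraries 13 of the 15 were lower in CP5 than in matured chondrocytes, the exceptions being Dcn and Cilp, and 9 of the 15 were higher in CP5 than in osteoclasts. Aggrecan (Acan), the large proteoglycan of cartilage, stood at 49.1 ± 8.29 CPM in CP5 and 36.7 ± 8.73 in osteoclasts, against 1333 ± 345 in matured chondrocytes. Hapln1, the link protein that ties aggrecan to hyaluronan, stood at 16.6 CPM in CP5 and 1353 in matured chondrocytes, and Comp, a matrix protein that binds collagens, at 13.1 and 655 CPM. Matn1 and Matn3, which encode matrilins, stood at 18.3 and 3.04 CPM in CP5 and at 383 and 247 CPM in matured chondrocytes. Cnmd, a secreted inhibitor of vessel growth in cartilage, was at 318 ± 35.7 CPM in CP5 and 504 ± 182 in matured chondrocytes, beside 33.5 in osteoclasts. Dcn, which encodes the small proteoglycan decorin, was at 284 CPM in CP5 and 272 in matured chondrocytes. Ucma and S100b, which are not in the list and are named as similar to the type IX genes, had higher means in CP5 (52.9 and 194 CPM) than in matured chondrocytes (25.5 and 100 CPM). The chondrocyte progenitor subtypes differed in Acan, at 191 CPM in CP1 and 234 in CP2 but 46.8 to 67.2 in CP3 to CP6. Over all CPs it was 134 ± 4.86 CPM.

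In the class labelled hypertrophic chondrocyte and osteoblast the 6 genes lay between 0.86 and 2.09 times their level in osteoclasts of the same library. Col11a1 was the furthest above, at 1641 ± 119 CPM, 1.52 to 2.09 times osteoclasts, and was found in 72.5% of nuclei thinned to 1000 UMIs. Col2a1 stood at 484 ± 113 CPM, 1.26 to 1.60 times osteoclasts, Col9a1 at 150 ± 39.7 CPM, 1.03 to 1.19 times, and Col11a2 at 243 ± 32.4 CPM, 1.12 to 1.26 times. Col9a2 and Col9a3, at 46.1 and 62.7 CPM, were above osteoclasts in 3 and 2 of the 4 libraries. Col10a1, the defining collagen of hypertrophic cartilage, stood at 42.4 CPM in that class and 192 CPM in matured chondrocytes, so it was lower in the class. Col10a1 alone does not decide the label. The paper points to Alpl and Bglap, as genes of osteoblasts, in the cells it names hypertrophic, and their single levels are not given here. Sums of 7 hypertrophic markers, several of them shared with osteoblasts, were 9452 CPM in the class and 9468 CPM in osteoblasts, so they did not separate these types.

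The genotype comparison asked whether the collagen genes differ between Tbx1+/- and WT within a class. None of the 6 genes passed the test (edgeR quasi-likelihood, adjusted p under 0.05 and a change above 1.5-fold) in CT, CPs, matured chondrocytes, the hypertrophic class or osteoblasts. The share of all tested genes called was 0% in each of these 5 classes, over 7719 to 17894 genes, so a count of 0 says nothing particular to the collagens. At an unadjusted p under 0.05, edgeR had 142 genes in CT, 150 in CPs, 196 in matured chondrocytes, 273 in the hypertrophic class and 192 in osteoblasts, with none of the 6 among them, and DESeq2 called 0 genes in each class. The lowest unadjusted p among the 30 values was 0.231 and every edgeR adjusted p was 1.00 after rounding. This fit has no batch term, so its p-values and standard errors include the spread between batches. With the replicate number as a block, edgeR had more genes at an unadjusted p under 0.05. They numbered 954 in CT, 668 in CPs, 446 in matured chondrocytes, 662 in the hypertrophic class and 449 in osteoblasts. The p-values without a block thus do not show that genotype has no effect.

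Col2a1 in CPs stood at 1296 and 867 CPM in WT and at 1112 and 1017 CPM in Tbx1+/-. The Tbx1+/- libraries lay inside the WT range, and the edgeR log2 change (Tbx1+/- against WT) was -0.02 ± 0.21 (SE). It was 0.02 ± 0.38 in CT, -0.01 ± 0.47 in matured chondrocytes, -0.09 ± 0.25 in the hypertrophic class and -0.27 ± 0.21 in osteoblasts. Osteoblast levels of Col2a1 were 1361 and 903 CPM in WT and 1006 and 901 CPM in Tbx1+/-, which overlap.

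Col11a1 in osteoblasts had a log2 change of -0.02 ± 0.14. Over the 30 values of 6 genes in 5 classes, 13 were above 0 and 17 below, from -0.28 (Col9a3 in matured chondrocytes, SE 0.40) to 0.33 (Col9a2 in the hypertrophic class, SE 0.36). The libraries of the genotypes overlapped in 29 of the 30 and were separate in 1, while 24.1% of all 72195 tests in the 5 classes had genotypes that did not overlap. The exception was Col11a1 in CT, at 1782 and 1639 CPM in WT and 1783 and 1888 CPM in Tbx1+/-. There WT 1 and Tbx1+/- 1 differed by under 1 CPM. CT mixes subtypes that differ in Col11a1 (1470 CPM in CT1 and 2589 in CT3). CT1 nuclei numbered 1315 of 2040 and 332 of 1053 in WT, and 878 of 1555 and 118 of 775 in Tbx1+/-. Within CT1 the log2 ratios of the batches were 0.10 and 0.44, within CT4 -0.15 and -0.06, and CT2 and CT3 were mixed. CT values in the genotype comparison, here and below, were not adjusted for this make-up. Nor were the CP values in these fits, and CPs mix subtypes from 244 CPM of Col9a1 in CP1 to 1829 in CP5. CP4 nuclei numbered 684 of 4394 and 301 of 2424 in WT, and 560 of 3152 and 353 of 2513 in Tbx1+/-. Standard errors ran from 0.12 to 0.50 on the log2 scale.

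**Figure D5:**
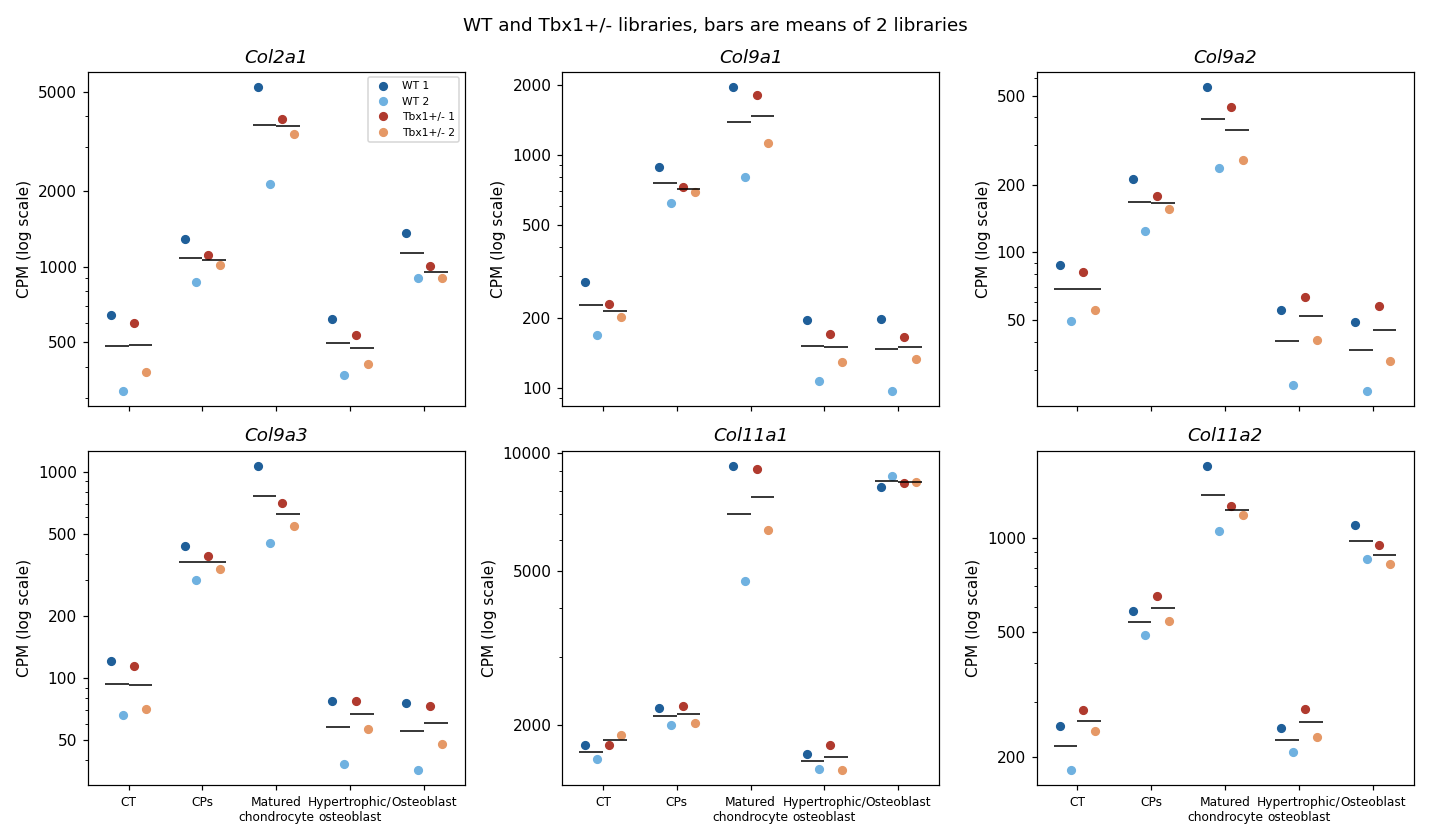
Level of each gene (CPM, log scale) in the 5 classes tested for genotype, with 1 point per library and a bar at the mean of the 2 libraries of a genotype. WT (blue) and Tbx1+/- (red and orange) overlap in 29 of the 30 pairs of gene and class (24.1% of the tests over all genes had separate genotypes), and the first replicate is usually above the second.

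The larger pattern among libraries followed the replicate number. Within WT, replicate 1 exceeded replicate 2 in all 15 types for Col2a1, Col9a1, Col9a2, Col9a3 and Col11a2, with median ratios of 1.64, 1.71, 1.87, 1.82 and 1.28. Within Tbx1+/- the same direction held in 12 to 15 types, with median ratios of 1.18 to 1.33. For Col11a1 the median ratio was 1.10 in both genotypes. Osteoclasts showed it too, with Col2a1 at 493 and 233 CPM in WT. The 15 types of a genotype come from the same 2 libraries and are not separate observations. The share over all genes is not given, so the pattern is not shown to be particular to the collagens. The nuclei of replicate 1 had the lower median depth in both genotypes in 14 of the 15 types and the higher one in matured chondrocytes (2744 against 2339 UMIs in WT), and what the batch stands for beyond separate animals was not tested. Within batches, 9 of the 30 genotype changes had the same direction in both, 7 higher and 2 lower in Tbx1+/-, beside 48.4% of the tests over all genes. Col9a2 was higher in both batches in the hypertrophic class (log2 ratios 0.20 and 0.67) and in osteoblasts (0.23 and 0.44), and Col2a1 was lower in both in osteoblasts (-0.44 and -0.0026). Col11a1 was higher in both in CPs by little (0.015 and 0.019). Within CP1 and CP2 it was lower in both, within CP3 and CP4 higher in both, and within CP5 and CP6 mixed. Col11a2 was higher in both in CT, CPs and the hypertrophic class and lower in both in osteoblasts. The difference in genotype change between osteoblasts and each of those classes passed in 0 of 3 edgeR fits at an adjusted p under 0.05, where 0%, 0% and 0.0185% of all genes passed. With the replicate number as a block, edgeR still called none of the 6 genes in any class. The share of all genes called in that fit was 0.151% in CT and 0.233% in matured chondrocytes. It was 0% in CPs, the hypertrophic class and osteoblasts, so this too says nothing particular to the 6 genes.

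Genes around collagen assembly were read from 7 lists of 95 genes, and 0 of 451 tests across the 5 classes passed, with 7 at an unadjusted p under 0.05. Over all genes 1.32% of the tests were under that value, which is 953 of 72195. Of the 12 cartilage transcription factors, the most highly counted in matured chondrocytes were Runx2, Sox6 and Trps1. Sox6, a SOX9 partner, stood at 2615 CPM there, 664 in CPs, 752 in osteoblasts and 182 in osteoclasts. Among the 22 genes of folding and export, Serpinh1 (HSP47, the collagen chaperone), Creb3l2 and Ppib led, with Serpinh1 at 455 CPM in matured chondrocytes, 509 in osteoblasts and 163 in osteoclasts. Of 13 genes for processing and crosslinking, Adamts3, Pcolce2 and Lox led, at 187, 174 and 131 CPM in matured chondrocytes.

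Acan, Hapln1 and Comp were the leading fibril partners of 15, and Itga10, Itgb1 and Ddr2 the leading receptors of 7. Itga10, part of a receptor for type II collagen, stood at 295 CPM in matured chondrocytes, 206 in osteoblasts and 34.5 in osteoclasts. Ctsk, Mmp16 and Mmp9 led the 12 breakdown genes, and Ctsk and Mmp9 were far higher in osteoclasts, at 4606 and 1116 CPM. Among 14 other collagens, Col1a1 and Col1a2 stood at 9349 and 8601 CPM in osteoblasts, against 4410 and 4055 CPM in matured chondrocytes. Col27a1, a fibrillar collagen of cartilage, stood at 2751 CPM in matured chondrocytes, 596 in CPs, 408 in osteoclasts and 89.3 in osteoblasts. Unlike Col11a1, it was thus not high in osteoblasts. Its level there was below that in osteoclasts, so osteoclasts are not a floor for every cartilage collagen. The source of the osteoclast counts was not tested.

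The median log2 change of a list ran from -0.20 (fibril partners in CT) to 0.26 (breakdown genes in matured chondrocytes), beside medians over all genes of -0.01 to 0.01. The 7 at an unadjusted p under 0.05 were Col24a1, Pcolce2 and P3h3 in matured chondrocytes, with log2 changes of 1.06, -0.70 and -0.69, and Chad, Col10a1, Col6a3 and Acan in the hypertrophic class, with log2 changes of -1.09, -1.27, -0.37 and -0.38. Their adjusted p in edgeR was 1.00 each.

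In the PF/F the 6 genes were far lower. Over all 48237 annotated nuclei Col11a1 stood at 119 ± 5.14 CPM (n = 4), Col9a3 at 48.0 ± 7.08, Col9a1 at 11.7 ± 1.26, Col2a1 at 7.71 ± 0.51, Col9a2 at 7.21 ± 0.59 and Col11a2 at 1.92 ± 0.25. Col9a1 was highest in oligodendrocytes (89.3 CPM) and the RL.early type (77.7 CPM), Col9a3 in astroglia (88.9 ± 13.6 CPM) and oligodendrocytes (85.6 ± 9.88 CPM), which overlapped, and Col2a1 in astroglia (36.2 CPM). Col11a1 was highest in the GABA.interneuron type (327 CPM).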

How the data were processed

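Single-nucleus RNA libraries from the PTB and the PF/F were analysed, 4 from each tissue. The deposited matrices hold raw counts of UMIs by gene and barcode, aligned to mm10 with intron reads included (Cell Ranger 7.0.0, run by the authors). They hold the filtered barcodes of that tool, before the authors' filters and SoupX correction for free RNA, and no doublet removal is described. Cell types are those of the deposited annotation. The 6 genes, the lists and the tests were chosen with earlier results of these data known.

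UMIs were summed per library and type in pandas 2.3.3, numpy 2.4.6 and scipy 1.17.1 (Python 3.11.15) and plotted with matplotlib 3.10.9. CPM are per 1000000 UMIs of the summed nuclei. PTB types were made by clustering all genes, so types were not tested against each other. Genotypes were compared on the sums, 2 WT against 2 Tbx1+/- libraries, with the quasi-likelihood test of edgeR 4.0.16 (filterByExpr, TMM) and beside it with DESeq2 1.42.0 in R 4.3.3, with Benjamini-Hochberg adjustment over all tested genes, and were called at an adjusted p under 0.05 and a change above 1.5-fold. Standard errors were taken as the ratio of a log2 change to the root of its F value. An exact permutation test of 2 against 2 libraries cannot go below p = 0.33 and was not used. The fits were also run on simulated counts with known changes, and no error rate or power is taken from that run. Shares of nuclei at 1000 UMIs are hypergeometric expectations. Nuclei of 1 library are not replicates.

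Replicate numbers were taken to mark the batches of animals, which the labels do not state. Same-numbered libraries deviated together, with a correlation across genes of 0.48 in CT, 0.44 in CPs, 0.16 in matured chondrocytes, 0.38 in the hypertrophic class and 0.37 in osteoblasts. Gene models come from GENCODE vM21, which matched 99.8% of the 32285 features, and promoters from RefSeq. Named genes were the 6 genes, for each the 5 others with the highest Pearson r over the PTB types among those of at least 10 CPM in some type, from each list any called gene and the 3 most highly counted in matured chondrocytes, and marker genes of the types. Col24a1, P3h3, Chad, Col10a1, Col6a3 and, in the genotype tests, Pcolce2 and Acan were named for their p-values after these were seen, and the marker genes Cnmd and Matn3 were set against CP5 after their values were seen, as were Dcn, Cilp and the tally of fibril partners there. Alternatives were other size factors, DESeq2, no filter, a replicate block, each library left out, the 8% of nuclei with the most UMIs left out and a minimum of 2000 detected genes per nucleus.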

Additional observations from a re-analysis of the deposited data

Results flagged for a closer look

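Col11a2 was higher in both batches of Tbx1+/- in CT (log2 ratios 0.16 and 0.41), CPs (0.16 and 0.14) and the hypertrophic class (0.20 and 0.16), and lower in both in osteoblasts (-0.21 and -0.05). The difference between classes in the genotype change was tested after this was seen, with edgeR fits that hold library and class terms. Osteoblasts against CT gave a difference of -0.44 ± 0.12 (SE, adjusted p = 1.00), osteoblasts against CPs -0.32 ± 0.08 (adjusted p = 1.00) and osteoblasts against the hypertrophic class -0.35 ± 0.08 (unadjusted p = 0.000302, adjusted p = 0.349 over 16200 genes). None of the 3 passed at an adjusted p under 0.05. Over all genes the share that passed was 0% of 16844 and of 17779 genes in the first and the second of these fits and 0.0185% (3 genes) in the third, so this says nothing particular to Col11a2. The 10 pairs of classes were all fitted, and the 2 classes of a library share its animals.

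The genes were also counted in PTB barcodes that the annotation leaves out. In the paper the annotated nuclei are a subset of the bone nuclei that passed its filters. Immune cells and neurons are among the types it found outside that subset. The left-out barcodes thus mix such nuclei with barcodes that failed the filters. Their mean levels there were 789 ± 220 CPM for Col2a1, 333 ± 59.6 for Col9a1, 115 ± 26.2 for Col9a2, 185 ± 28.8 for Col9a3, 1849 ± 403 for Col11a1 and 424 ± 81.7 for Col11a2 (SD, n = 4), all above the osteoclast means. Barcodes with at least 10 Col2a1 UMIs made up 4.17% to 8.23% of these barcodes and held 32.8% to 55.0% of their Col2a1 UMIs. No cell type is assigned to them here.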

How the results depend on the processing

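None of the 6 genes was called in any class under any of the 10 alternatives. The count of all genes called, 0 in each class, became 1 in CT, 10 in matured chondrocytes and 17 in the hypertrophic class with no filter on low counts, and 24 in CT and 18 in matured chondrocytes with the replicate block, which changed no other call. With 1 library left out it ran from 6 to 27 in matured chondrocytes (27 without WT replicate 1), from 0 to 2 in the hypertrophic class and from 0 to 33 in osteoblasts (33 without WT replicate 2), the lone library being assumed to vary like the others. The cause was not tested.

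Of the 30 log2 changes, 26 turned sign when some library was left out and 10 under another alternative. Leaving out 1 library also unbalances the batches. All 21 changes that differed in direction between batches turned sign then, and so did 5 of the 9 with 1 direction, all 9 of which kept it with the replicate block. With 1 library left out the Col2a1 change ran -0.40 to 0.60 in CT, -0.29 to 0.31 in CPs, -0.52 to 0.79 in matured chondrocytes, -0.41 to 0.34 in the hypertrophic class and -0.54 to 0.058 in osteoblasts. For Col11a2 it ran 0.055 to 0.51 in CT, 0.006 to 0.29 in CPs, -0.47 to 0.25 in matured chondrocytes, 0.03 to 0.32 in the hypertrophic class and -0.34 to 0.029 in osteoblasts. It ran -0.078 to 0.0089 for Col11a1 in osteoblasts, -0.79 to 0.48 for Col9a3 in matured chondrocytes and -0.10 to 1.02 for Col9a2 in the hypertrophic class. With the replicate block Col2a1 turned to 0.0099 in CPs and 0.13 in matured chondrocytes, and with at least 2000 genes per nucleus to -0.0090 in CT and 0.050 in matured chondrocytes.

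The ratio of matured chondrocytes to osteoclasts kept its direction throughout. For Col9a1 (10.2) it became 8.97 as a mean over nuclei and 12.3 with at least 2000 genes, and for Col11a2 (6.30) 5.15 with at least 2000 genes. With 1 library left out it was 9.68 to 10.52 for Col2a1, 9.77 to 10.75 for Col9a1, 8.81 to 10.67 for Col9a2, 10.89 to 11.54 for Col9a3, 6.80 to 7.82 for Col11a1 and 5.85 to 6.65 for Col11a2. Limits are the 48 matured chondrocyte nuclei of 1 Tbx1+/- library, the erythroid counts in WT replicate 2, 2 libraries a genotype, and free RNA, which was not corrected.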
